A study of Rattus norvegicus with 96 samples.

Results

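Cldn5, Slco1a4, Kdr and Notch3 are genes of the cells that build brain blood vessels, and their RNA was followed here in 3 brain regions of rats of both sexes that had received nicotine (NIC) or saline (SAL). The 4 genes are Cldn5 (ENSRNOG00000045811, chromosome 11), Slco1a4 (ENSRNOG00000047493, chromosome 4), Kdr (ENSRNOG00000046829, chromosome 14) and Notch3 (ENSRNOG00000004346, chromosome 7), out of 17637 genes in the count table. They were picked because the study's own tables of genes that differed between NIC and SAL name them: Cldn5 in the female VTA table, Slco1a4 in the male NAc core, female NAc core and female VTA tables, and Kdr and Notch3 in the male NAc core and female VTA tables. The study asked which genes differ in the ventral tegmental area (VTA), nucleus accumbens (NAc) core and NAc shell after nicotine sensitization (SST), a lasting rise in the locomotor response to repeated NIC. The rats were F1 offspring of F344 and BN inbred strains, in early adulthood, from both directions of the cross, with 16 rats per sex. Rats of the NIC groups were given 0.4 mg/kg NIC (base) once a day for 4 days, rats of the SAL groups 1.0 ml/kg saline, and tissue of about 20 mg per region was dissected by hand on day 17. Each library was bulk RNA of 1 region of 1 rat, so fewer vessel cells and less RNA of a gene per vessel cell cannot be told apart.

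Endothelial cells of brain capillaries form the blood-brain barrier: they seal their contacts with tight junctions and move solutes with dedicated transporters. Mural cells, which are pericytes on capillaries and smooth muscle cells on larger vessels, wrap the endothelium and share its basement membrane. Claudin-5, made from Cldn5, is the main sealing protein of these endothelial tight junctions, and Slco1a4 encodes an organic anion transporting polypeptide of the barrier. Kdr encodes VEGF receptor 2, through which VEGF-A acts on endothelial cells, and Notch3 encodes the Notch receptor that mural cells depend on. Notch receptors are switched on by ligands on a neighboring cell and act in the nucleus through the DNA-binding protein RBPJ.

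The stretch before each gene's start is shown because the 4 genes shared their direction between VTA and NAc, described further on, and these are the sequences in front of them. Each is the 250 bases before the start in RefSeq's GRCr8 rat assembly, 5′ to 3′ on the gene's strand: Cldn5 at chr11:95718599-95718848 (minus strand), Slco1a4 at chr4:176495847-176496096 (minus), Kdr at chr14:32571813-32572062 (plus) and Notch3 at chr7:11834586-11834835 (minus). The counts were made on Rnor version 6, so these GRCr8 positions serve the sequences only. Capitals mark every match, on either strand, to an ETS factor core (CGGAAG), an RBPJ core (TGGGAA), a GC box (GGGCGG) or a TATA box (TATAAA).
Cldn5: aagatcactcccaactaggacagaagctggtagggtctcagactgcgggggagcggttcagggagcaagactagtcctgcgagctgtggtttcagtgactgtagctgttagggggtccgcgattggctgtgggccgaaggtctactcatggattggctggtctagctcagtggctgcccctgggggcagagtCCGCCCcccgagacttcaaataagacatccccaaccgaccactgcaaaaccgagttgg
Slco1a4: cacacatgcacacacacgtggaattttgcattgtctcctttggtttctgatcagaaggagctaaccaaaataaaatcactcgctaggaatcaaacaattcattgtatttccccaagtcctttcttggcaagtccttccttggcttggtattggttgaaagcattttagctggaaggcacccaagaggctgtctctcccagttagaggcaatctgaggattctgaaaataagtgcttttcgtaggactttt
Kdr: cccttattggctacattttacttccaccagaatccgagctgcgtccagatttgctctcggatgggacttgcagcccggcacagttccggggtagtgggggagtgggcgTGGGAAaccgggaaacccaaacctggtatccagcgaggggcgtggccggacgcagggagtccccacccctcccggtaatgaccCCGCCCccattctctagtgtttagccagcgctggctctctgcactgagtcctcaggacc
Notch3: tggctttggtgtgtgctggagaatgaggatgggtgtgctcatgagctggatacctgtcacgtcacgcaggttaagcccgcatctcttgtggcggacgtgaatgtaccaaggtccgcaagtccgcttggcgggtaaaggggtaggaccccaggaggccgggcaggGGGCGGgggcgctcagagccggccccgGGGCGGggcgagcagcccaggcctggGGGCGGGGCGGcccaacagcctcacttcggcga

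The GC box was found in Cldn5 and Kdr at 1 place each and in Notch3 at 4 places, 2 of which overlap by 1 base, and was not matched in Slco1a4. Of 33469 rat stretches of the same length, 30.5% held it. The RBPJ core was matched once, in Kdr, 142 to 137 bases before the start, and 22.1% of all stretches held it. Neither the ETS core nor the TATA box was matched in any of the 4 windows, against 13.9% and 12.9% of all stretches. GC content was 42.4% for Slco1a4, 58.4% for Cldn5, 61.6% for Kdr and 67.6% for Notch3, with a median of 51.2% over all stretches. A match describes these letters and is not a bound site.

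The 94 libraries used held 15868529 to 27736905 counts each, and the 4 genes were counted in all of them, from 163 (the lowest count of Kdr) to 4155 (the highest of Cldn5). All 15 endothelial and all 12 mural marker genes with an identifier had counts above 0 in every library. Values below are CPM, counts scaled to the library size with the TMM factors of edgeR. The region labels were checked with Slc6a3, the dopamine transporter, and with Drd1, a dopamine receptor of striatal neurons. Slc6a3 had a median of 855 CPM in VTA against 0.287 in NAc core and 0.349 in NAc shell. Library female VTA NIC 2 stood apart, with 22.6 CPM of Slc6a3 (402 to 1197 in the other 30 VTA libraries) and 2553 CPM of the choroid plexus gene Ttr. Male NAc core SAL 1 and male NAc shell SAL 1 had 9.28 and 5.09 CPM of Drd1, below all others of their regions (at least 22.7 and 51.1). Region, sex and NIC comparisons that rest on these 3 libraries were also run without them; ranges of CPM and summed marker levels include them.

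All 4 vessel genes were higher in VTA than in either part of the NAc, and the size of the step differed among them. Kdr and Notch3 were 1.68 and 1.93 times as high in VTA as in NAc core, while Slco1a4 was 1.28 times and Cldn5 1.17 times as high. Against NAc shell the ratios were 2.04 for Kdr, 1.70 for Notch3, 1.39 for Slco1a4 and 1.27 for Cldn5. All of these differences had an adjusted p below 0.05 with edgeR's quasi-likelihood test, as did 81.6% of the 16879 genes tested between VTA and NAc core and 80.8% between VTA and NAc shell. The comparisons share their VTA libraries.

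Cldn5 CPM ranged from 115 to 218 in VTA (median 151, n = 31), from 105 to 174 in NAc core (median 133, n = 31) and from 91.8 to 159 in NAc shell (median 117, n = 32). The ranges overlap widely, yet Cldn5 was higher in VTA than in NAc core in 27 of 30 rats that had both libraries, and higher than in NAc shell in 30 of 31. The fitted log2 difference was 0.22 ± 0.039 (SE) against NAc core and 0.35 ± 0.039 against NAc shell, with adjusted p of 3.33e-07 and 2.22e-13.

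Slco1a4 ran from 75.6 to 156 CPM in VTA (median 104), from 63.8 to 113 in NAc core (median 83.0) and from 58.5 to 97.9 in NAc shell (median 77.4). Its VTA level exceeded that of NAc core in 25 of 30 rats and that of NAc shell in 31 of 31 rats, by log2 0.35 ± 0.044 and 0.48 ± 0.044 (adjusted p 1.85e-11 and 3.96e-17).

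Kdr, the VEGF receptor, ran from 14.4 to 44.8 CPM in VTA (median 30.7), against 11.8 to 25.7 in NAc core (median 17.5) and 9.30 to 18.4 in NAc shell (median 15.0). The VTA range overlapped that of NAc core from 14.4 to 25.7 CPM and that of NAc shell from 14.4 to 18.4 CPM. Kdr was higher in VTA than in NAc core in 27 of 30 rats and than in NAc shell in 31 of 31, by log2 0.75 ± 0.066 and 1.03 ± 0.066 (adjusted p 3.8e-18 and 7.76e-26).

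Notch3, the mural receptor, ran from 19.0 to 72.1 CPM in VTA (median 37.5), against 13.8 to 33.1 in NAc core (median 20.9) and 18.02 to 38.1 in NAc shell (median 24.0). Of 30 rats, 29 had more Notch3 in VTA than in NAc core, and 29 of 31 had more than in NAc shell. The log2 differences were 0.95 ± 0.076 and 0.77 ± 0.075 (adjusted p 2.88e-20 and 5.31e-16). Without the 3 libraries that stood apart, the log2 differences of the 4 genes were 0.27 to 0.99 against NAc core and 0.39 to 1.06 against NAc shell, each with an adjusted p below 0.05. In saline rats alone they were 0.29 to 1.22 and 0.39 to 1.06; those rats also belong to the contrast by which the genes were picked.

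**Figure D1:**
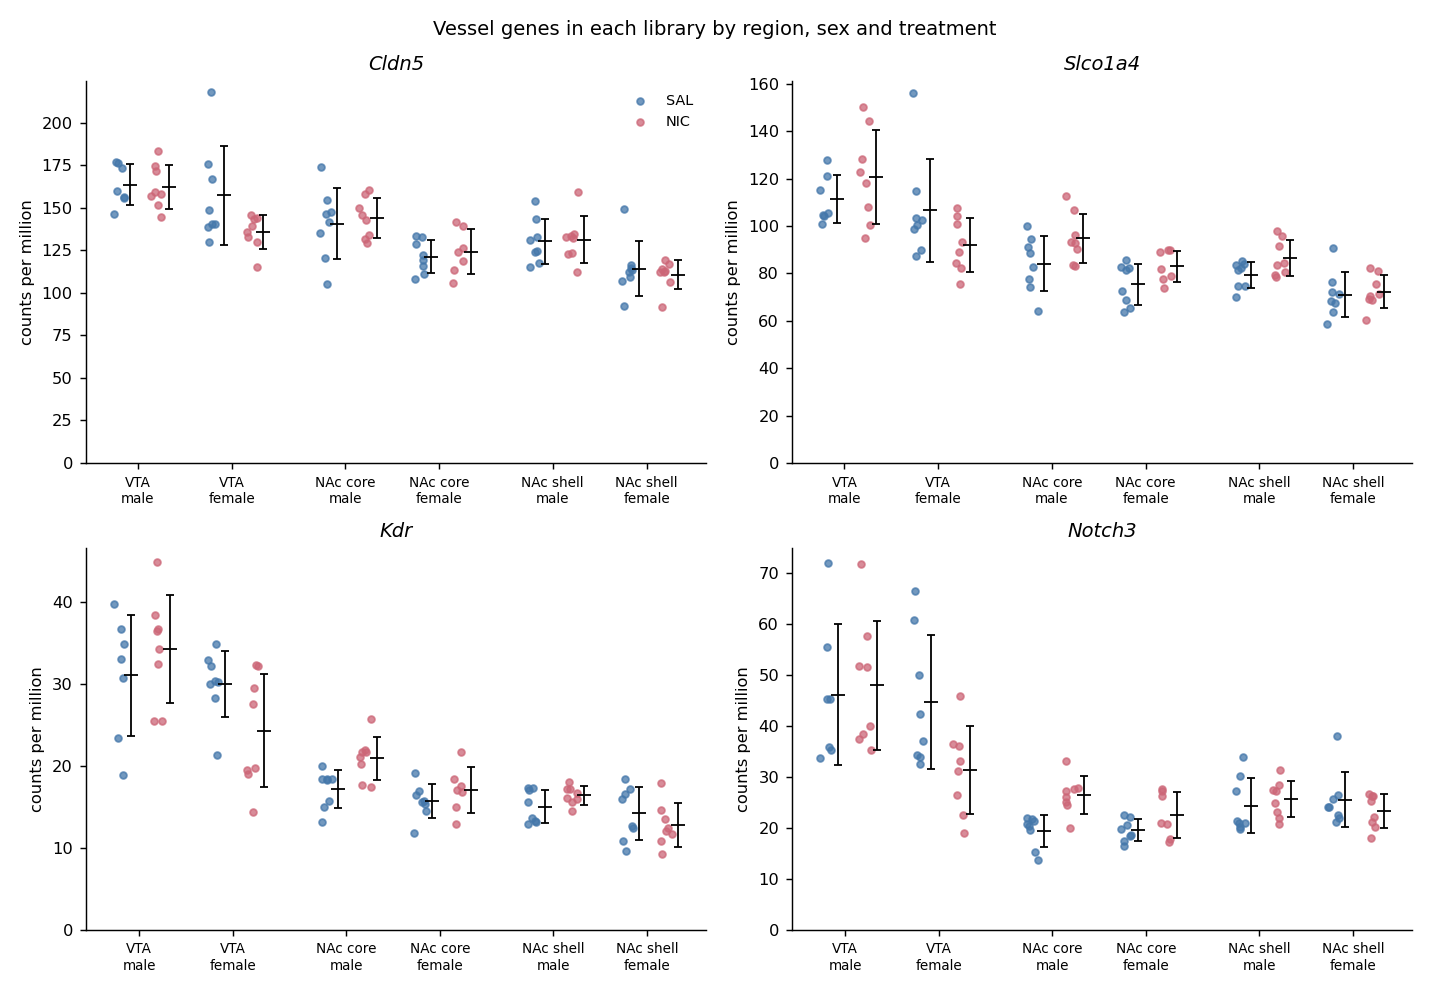
CPM, the count scaled to library size (vertical axis, from 0), of the 4 vessel genes in each of the 94 libraries, by region and sex, with SAL in blue and NIC in red; bars give the mean and SD of each group of 7 or 8 libraries. The VTA groups of Kdr and Notch3 sit above the NAc groups, with VTA medians of 30.7 and 37.5 CPM, and the steps of Cldn5 and Slco1a4 are smaller.

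Because the log2 ratio of 2 genes within a library does not depend on how libraries are scaled, these ratios were compared between regions of the same rat with a two-sided sign-flip permutation test (100000 draws, 18 tests, Benjamini-Hochberg adjusted). The test was added after the values were seen. Relative to Cldn5, Notch3 was higher in VTA than in NAc core in 28 of 30 rats, by a mean log2 of 0.66 (the Cldn5 to Notch3 ratio differed by -0.66 ± 0.069 SE, adjusted p 2.25e-05), and Kdr in 25 of 30 rats (-0.50 ± 0.079, 2.25e-05). The unadjusted p of 1e-05 behind these values is the smallest the draws can give. The endothelial genes Cldn5 and Slco1a4 were closer to each other, with a difference of -0.12 ± 0.041 (adjusted p 0.0062). Between VTA and NAc shell the order of Kdr and Notch3 was the other way round: the Kdr to Notch3 ratio was higher in VTA in 23 of 31 rats, by 0.29 ± 0.074 (adjusted p 0.000748), whereas against NAc core it was lower in 20 of 30 rats, by -0.16 ± 0.062 (adjusted p 0.0175). Leaving out the rats with libraries that stood apart kept all of these adjusted p below 0.05.

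NAc core and NAc shell differed less, and here Notch3 parted from the endothelial genes. Kdr was higher in core than in shell by log2 0.28 ± 0.066 (adjusted p 0.000582, higher in 26 of 31 rats), Cldn5 by 0.12 ± 0.039 (0.00942, 24 of 31 rats) and Slco1a4 by 0.12 ± 0.044 (0.0226, 24 of 31 rats). Of all genes tested, 32.3% passed in this contrast. For Notch3 the log2 difference was -0.18 ± 0.076 with an adjusted p of 0.0579, and it was lower in core in 23 of 31 rats. With the rat as a replicate block, which pairs the regions of a rat, Notch3 passed (-0.18, adjusted p 0.0303) and the other 3 genes passed as well. The ratios of Cldn5, Slco1a4 and Kdr to Notch3 were all higher in core, by 0.30 ± 0.049, 0.31 ± 0.055 and 0.46 ± 0.051, in 29, 28 and 29 of 31 rats (permutation, adjusted p at most 4e-05). The Cldn5 to Slco1a4 ratio differed by -0.0012 ± 0.034 (adjusted p 0.971).

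Several of the core to shell calls lay near the threshold. Slco1a4 did not pass without male rat 15 (adjusted p 0.0527), male rat 2 (0.0544) or male rat 5 (0.0518), nor without the 3 libraries that stood apart (0.0567). Notch3 passed without male rat 7 (0.0453), male rat 8 (0.0373), male rat 9 (0.0408) or female rat 11 (0.0466), and without the 3 libraries (0.0362). In saline rats alone Notch3 passed at log2 -0.36 (adjusted p 0.0129), while Kdr at 0.17 (0.197), Cldn5 at 0.095 (0.296) and Slco1a4 at 0.080 (0.41) did not. Notch3, Kdr and Slco1a4 were picked because they differed between NIC and SAL in male NAc core, where they were higher with NIC. Their core values in saline rats are therefore not free of the picking, and the saline fit cannot be read apart from it.

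**Figure D2:**
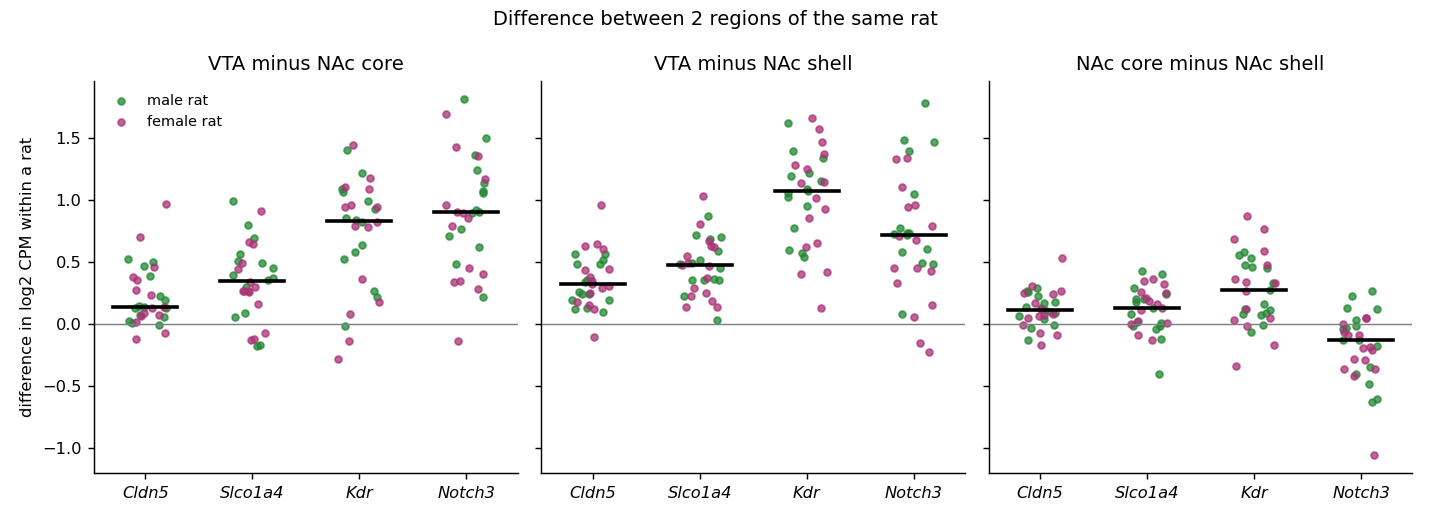
Difference in log2 CPM (prior count 2) between 2 regions of the same rat, 1 point per rat, for the 4 genes, with males in green, females in purple and the median as a black bar. For VTA minus NAc core the medians are 0.14 for Cldn5, 0.35 for Slco1a4, 0.83 for Kdr and 0.90 for Notch3; for NAc core minus NAc shell the median of Notch3, at -0.13, is the only one below 0.

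Other genes were counted from lists of endothelial and mural markers and of tight junction, Slco, VEGF and Notch genes. The latter lists were not limited to vessel cells, and which cells gave their RNA was not tested. Only genes that the study's supplementary tables, those of NIC and SAL among them, pair with a symbol could be looked up (15 of 24 endothelial, 12 of 18 mural, 7 of 12 tight junction, 4 of 11 further Slco family, 3 of 9 VEGF and 9 of 17 Notch genes), so the lists hold genes named there and are incomplete. Between VTA and NAc core, 13 of 15 endothelial genes rose, 0 fell and 2 did not pass, with a median log2 difference of 0.30 beside 0.012 over all genes tested. Of all 16879 genes, 81.6% passed here in either direction and 6979 rose, so the number of endothelial genes that passed is near that of all genes. Tie1 (0.50 ± 0.048) and Tek (0.43 ± 0.047), receptors of the angiopoietin system, had the smallest p. Of the mural genes, 9 of 12 rose and 3 did not pass, with a median of 0.73, and were led by Mcam (0.89 ± 0.062), an adhesion molecule, and Rgs5 (0.99 ± 0.075), a pericyte regulator of G protein signaling. Against NAc shell, 15 of 15 endothelial genes rose (median 0.37) and 10 of 12 mural genes rose (median 0.61), beside 0.0040 over all genes, of which 80.8% passed and 6830 rose.

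Tight junction genes were mixed between VTA and NAc core: 5 of 7 rose, 1 fell and 1 did not pass, where 81.6% of all genes passed. Cldn1, another claudin, was higher by log2 1.79 ± 0.16 and F11r, a junctional adhesion molecule, by 0.42 ± 0.051, while the polarity gene Pard3 was lower (-0.63 ± 0.085). Cldn1 had the lowest median of this list, at 2.17 CPM. All 4 further Slco transporters rose, with Slco3a1 at 1.19 ± 0.043 and Slco4a1 at 1.303 ± 0.083. Among VEGF ligands, Vegfb was higher in VTA (0.80 ± 0.034) and Vegfa, the main ligand of the receptor that Kdr encodes, was lower (-0.25 ± 0.032), as was Vegfd (-0.37 ± 0.11). In the Notch pathway 5 of 9 genes rose, 1 fell and 3 did not pass. The target Heyl (0.59 ± 0.039) and the receptor Notch2 (0.75 ± 0.053) rose, and the target Hes1 fell (-0.59 ± 0.095). The same named genes led the contrast with NAc shell, except Vegfd, which did not pass there: Heyl was higher by 0.48 ± 0.039, Notch2 by 0.57 ± 0.052 and Vegfb by 0.73 ± 0.034, and Vegfa was lower at -0.16 ± 0.032.

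Between NAc core and NAc shell the endothelial and mural lists had medians of opposite sign; whether the lists differ was not tested. Of 15 endothelial genes 6 were higher in core, 0 lower and 9 did not pass (median 0.077), where 32.3% of all genes passed and 2669 of 16879 were higher in core, with Emcn at 0.18 ± 0.046 and Tek at 0.18 ± 0.047. Of 12 mural genes 1 was higher, 3 were lower and 8 did not pass (median -0.068); the smooth muscle genes Tagln (-0.47 ± 0.16) and Myl9 (-0.36 ± 0.13) were lower and the pericyte peptidase Anpep was higher (0.21 ± 0.071). In the Notch list Notch4, an endothelial receptor, was higher in core (0.14 ± 0.046), and Notch2 (-0.18 ± 0.052) and Heyl (-0.11 ± 0.039) were lower. Vegfa was higher in core by 0.085 ± 0.032, and of the Slco genes Slco2b1 was higher (0.11 ± 0.031) and Slco4a1 (-0.47 ± 0.083) and Slco3a1 (-0.17 ± 0.043) were lower. Of the 7 tight junction genes only the scaffold gene Tjp1 passed, higher in core by 0.089 ± 0.030.

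**Figure D3:**
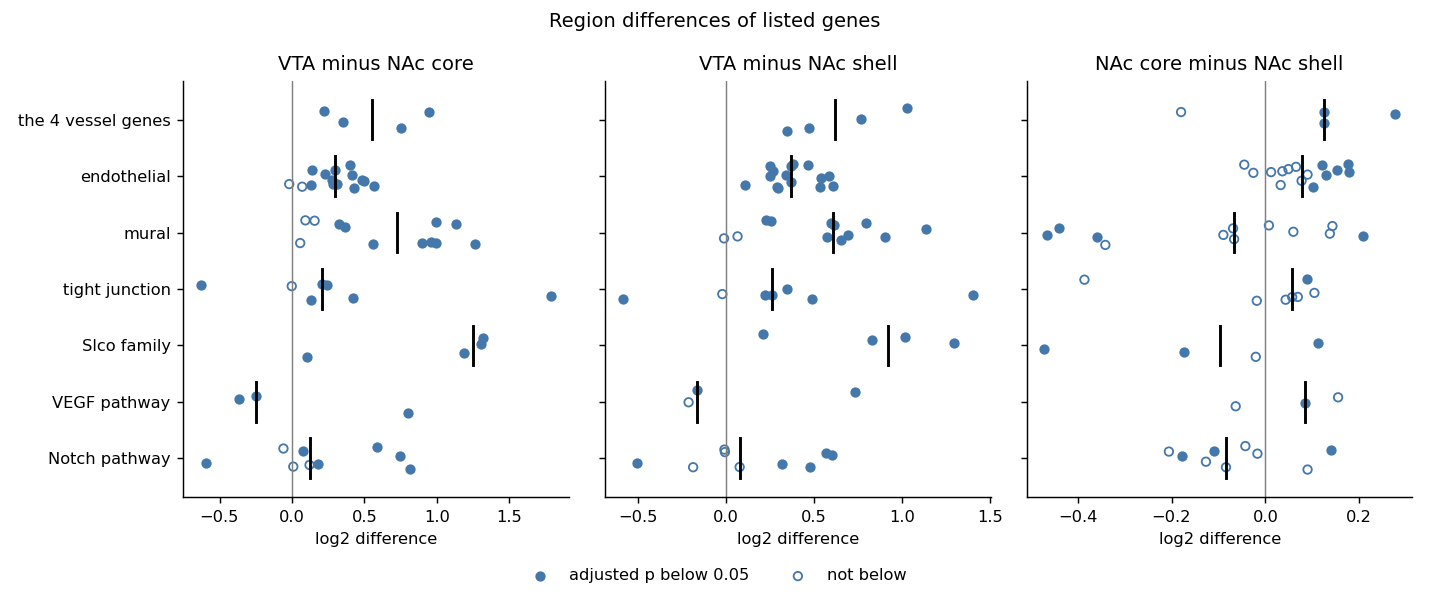
Log2 difference between regions (horizontal axis) of the 4 vessel genes and of each listed gene with an identifier, by list; filled points had an adjusted p below 0.05 in edgeR, and black bars mark list medians. Endothelial medians are 0.30, 0.37 and 0.077 and mural medians 0.73, 0.61 and -0.068 in the panels from left to right.

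Markers of other cells moved with region too. The summed level of 10 fibroblast genes, which mark meninges and the walls of larger vessels, ran from 179 to 3418 CPM in VTA (median 1774), from 207 to 1388 in NAc core (median 568.2) and from 403 to 1270 in NAc shell (median 784). All 10 rose between VTA and NAc core, 9 of 10 between VTA and NAc shell, and 7 of 10 were lower in core than in shell; 81.6%, 80.8% and 32.3% of all genes passed in these contrasts. The 5 oligodendrocyte genes summed to median CPM of 37732 (VTA), 12458 (core) and 10436 (shell). The 2 red blood cell genes had medians of 322, 235 and 238 CPM. The 15 endothelial genes themselves summed to medians of 840 (VTA), 696 (core) and 659 CPM (shell), and the 12 mural genes to 1041, 621 and 729 CPM. None of the fibroblast markers was at 0 in any library, and their part in the region differences was not tested.

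The fitted difference between males and females was above 0 in all 12 comparisons of a gene and region, and 5 of them passed the test. In NAc core Cldn5 was 1.15 times as high in males, with 105 to 174 CPM (median 144, n = 16) against 106 to 141 in females (median 122, n = 15), a log2 difference of 0.21 ± 0.053 (adjusted p 0.0033). Slco1a4 (0.17 ± 0.056, adjusted p 0.0223) and Kdr (0.20 ± 0.072, 0.0313) were also higher in males in NAc core, and Notch3 did not pass (0.099 ± 0.081, 0.375). Without the 3 libraries that stood apart, the same genes passed in NAc core and NAc shell as with them, and 0 of 4 in VTA. With female NAc core NIC 1 included, a library whose Slc6a3 (382 CPM) and Drd1 (1.69 CPM) go against its NAc core label, Cldn5 passed (adjusted p 0.013) and Slco1a4 (0.15, adjusted p 0.0658) and Kdr (0.14, 0.227) did not. In NAc shell Cldn5 (0.22 ± 0.051, adjusted p 0.0032) and Slco1a4 (0.21 ± 0.050, 0.00338) passed, and Kdr (0.22 ± 0.086, 0.0693) and Notch3 (0.034 ± 0.087, 0.822) did not. In VTA none of the 4 passed after adjustment, although each had an unadjusted p of 0.0275 or lower and log2 differences of 0.16 to 0.34. DESeq2 also called 0 of the 4 in VTA. The share of all genes that passed was 2.33% for VTA, 32.9% for core and 21% for shell.

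Sex could not be separated from how the libraries were made. Males were in box 1 and females in box 3, and of 10 preparation batches in the labels only batch L held both sexes, so sex, box and preparation cannot be told apart. In the VTA libraries of batch L, Cldn5 was 174 and 183 CPM in 2 males and 139 to 149 in 3 females, which do not overlap. Notch3 was 38.5 and 71.9 CPM in those males against 31.2 to 42.4 in the females, and Kdr and Slco1a4 overlapped. In NAc shell batch L held 1 library per sex, and in NAc core it held female libraries only. With preparation batch as a term, 0 of the 4 genes passed in NAc shell and the Notch3 difference turned to -0.28 (adjusted p 0.836). Single libraries also moved calls: without female VTA SAL 12, Cldn5 and Slco1a4 passed in VTA (adjusted p 0.0169 and 0.0235), and without male NAc core SAL 6 Kdr did not pass in NAc core (0.0501). In NAc shell Kdr passed without male SAL 7 (0.043), female SAL 12 (0.0405), female SAL 13 (0.0301), female SAL 16 (0.0465) or female NIC 8 (0.0316).

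The other vessel genes did not share 1 direction between the sexes. Of 15 endothelial genes, 1 was higher in males and 3 were lower in NAc core (lowest log2 difference -0.27), 3 were higher and 2 lower in NAc shell, and 1 was higher in VTA. Of 12 mural genes, 3 were higher in males in core, 3 in shell and 0 in VTA, and none was lower. Beside these and the following counts, 32.9% of all genes passed in core, 21% in shell and 2.33% in VTA. Fibroblast and striatal neuron markers also differed between the sexes. The 10 fibroblast genes had a median log2 difference, male minus female, of 0.52 for VTA, where 0 of 10 passed, 0.39 for core, where 5 were higher in males, and 0.43 for shell, where 6 were. The 5 striatal projection neuron genes were all lower in males in NAc core (median -0.72). Both red blood cell genes were higher in males in NAc shell (median 0.49), and neither passed in core or VTA. Their part in the vessel gene differences was not tested.

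The region differences were also compared between the sexes. None of the 12 differences passed with edgeR or DESeq2, and the lowest unadjusted p was 0.0505. It belonged to Notch3 between VTA and NAc shell, a step that was larger in males by log2 0.30 ± 0.15 (adjusted p 0.242). The other 11 values lay between -0.060 and 0.22. Of all genes, 11.3% passed for VTA against NAc core, 6.71% for VTA against NAc shell and 0.397% for NAc core against NAc shell.

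The NIC and SAL values are a description, with no test, since the genes were selected on them. In male NAc core, Notch3 ran from 20.0 to 33.1 CPM in 8 NIC rats (median 26.7) and from 13.8 to 21.9 in 8 SAL rats (median 20.6). Of the NIC rats, 7 lay above every SAL rat, and the log2 difference was 0.45 ± 0.10 (SE). Kdr ran from 17.4 to 25.7 CPM with NIC (median 21.4) and from 13.1 to 20.0 with SAL (median 18.3), with 6 of 8 NIC rats above all SAL rats and a log2 difference of 0.28 ± 0.093. For Slco1a4 the medians were 92.9 and 85.5 CPM, 2 NIC rats lay above all SAL rats (64.3 to 99.8), and the difference was 0.17 ± 0.083. Cldn5 had medians of 144 and 144 CPM, and its NIC range of 129 to 160 lay inside the SAL range of 105 to 174 (0.032 ± 0.080). Without male NAc core SAL 1, which stood apart, the differences were 0.45 for Notch3, 0.30 for Kdr, 0.20 for Slco1a4 and 0.082 for Cldn5; Cldn5 was at -0.018 without male NAc core SAL 4. Of all genes tested, 9.83% had an unadjusted p below 0.05 in this contrast.

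In female VTA all 4 values lay the other way. Notch3 ran from 19.0 to 45.9 CPM with NIC (median 32.2) and from 32.5 to 66.5 with SAL (median 39.7), with 4 of 8 NIC rats below every SAL rat and a log2 difference of -0.52 ± 0.19. Kdr ran from 14.4 to 32.4 CPM (median 23.6) against 21.3 to 34.8 (median 30.3), again with 4 NIC rats below all SAL rats, and differed by -0.31 ± 0.16. Cldn5 ran from 115 to 146 CPM (median 137) against 130 to 218 (median 144), a difference of -0.22 ± 0.091, with 1 NIC rat below all SAL rats. Slco1a4 ran from 75.6 to 108 CPM (median 91.0) against 87.3 to 156 (median 101), a difference of -0.21 ± 0.11, with 3 NIC rats below all SAL rats. Without female VTA NIC 2, which had the lowest value of each gene in its group, the differences were -0.44 for Notch3, -0.23 for Kdr, -0.19 for Cldn5 and -0.18 for Slco1a4. Without female VTA SAL 12 they were -0.14 for Cldn5 and -0.12 for Slco1a4. The share of all genes with an unadjusted p below 0.05 was 9.24%.

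The ranges of NIC and SAL overlapped for each gene in all 6 sets of rats, the 2 above included. In female NAc core the log2 differences ran from 0.029 (Cldn5) to 0.20 ± 0.11 (Notch3), in male VTA from -0.0044 (Cldn5) to 0.14 ± 0.16 (Kdr), in male NAc shell from 0.010 (Cldn5) to 0.12 ± 0.083 (Kdr), and in female NAc shell from -0.14 ± 0.14 (Kdr) to 0.035 (Slco1a4). Shares of all genes at an unadjusted p below 0.05 were 6.45%, 5.62%, 2.46% and 10.1% in that order. With female NAc core NIC 1 included, whose region markers go against its label, Notch3 in female NAc core differed by 0.39. Single libraries moved several of these values: in male VTA Kdr was 0.048 without SAL 7 and 0.20 without SAL 8, and Notch3 was -0.053 without NIC 11 and 0.19 without SAL 8. In female NAc shell Kdr was -0.23 without NIC 8 and -0.082 without SAL 13, and Notch3 was -0.020 without SAL 13. Leaving out 1 library at a time, values near 0 took either sign: Cldn5 ran from -0.038 to 0.054 in male NAc shell, from -0.038 to 0.019 in male VTA, from -0.0033 to 0.067 in female NAc core and from -0.076 to 0.023 in female NAc shell, and Slco1a4 from -0.00064 to 0.091 in female NAc shell. With preparation batch as a term, all 4 values in female NAc shell were positive, from 0.076 (Cldn5) to 0.19 (Slco1a4). Cldn5 had the smallest absolute difference of the 4 genes in all male regions and in female NAc core. Slco1a4, Kdr and Notch3 were picked because they differed in male NAc core, and Slco1a4 also in female NAc core. Cldn5 was picked from female VTA only, so in NAc core this order follows in part from the picking.

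**Figure D4:**
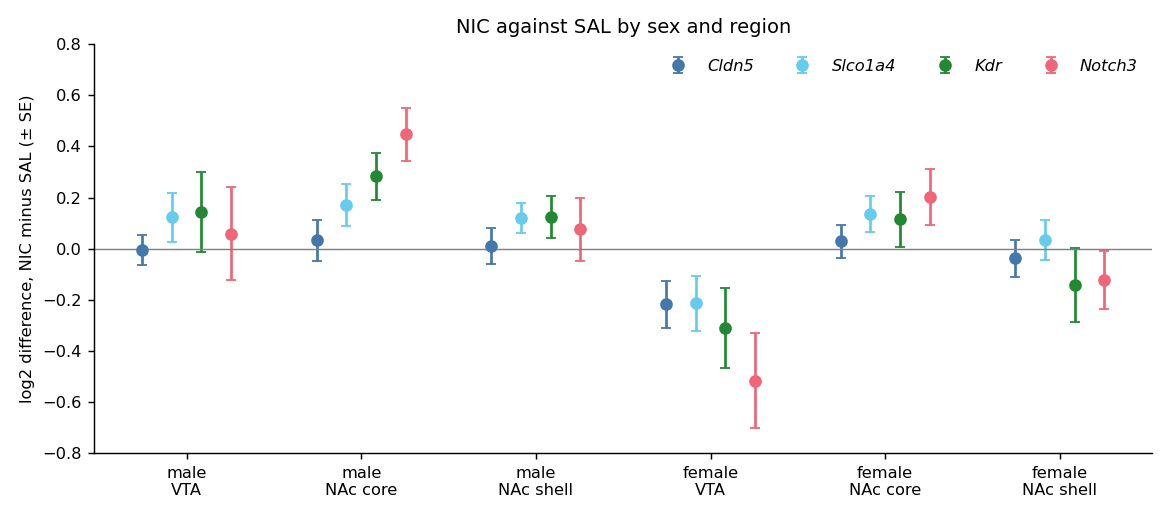
Log2 difference NIC minus SAL (vertical axis, with SE) of the 4 genes in each sex and region, from the edgeR fit. The values run from 0.032 (Cldn5) to 0.45 (Notch3) in male NAc core and from -0.21 (Slco1a4) to -0.52 (Notch3) in female VTA; they are shown as a description because the genes were selected on this contrast.

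Most preparation batches held 1 treatment only. In male NAc core batch C alone held both, with 4 NIC and 2 SAL libraries. Within it, Notch3 was 24.4 to 33.1 CPM with NIC and 20.4 and 20.7 with SAL, and Kdr was 20.3 to 25.7 against 15.0 and 15.7. Slco1a4 was 83.0 to 113 against 64.3 and 82.7 CPM there. These ranges did not overlap, and those of Cldn5 did (129 to 158 against 121 and 146 CPM). How many of all genes part in this way with so few libraries was not counted, and the genes were picked on NIC and SAL. In female VTA both treatments were present in J and in L. In J, Kdr was 19.0 and 19.7 CPM in 2 NIC rats and 30.3 and 32.9 in 2 SAL rats, and Notch3 was 33.2 and 36.1 against 37.0 and 50.1. In L the 1 NIC rat had 32.4 CPM of Kdr and 31.2 of Notch3, and the 2 SAL rats had 28.3 and 32.2 of Kdr and 34.3 and 42.4 of Notch3. With batch as a term the male NAc core values were 0.45 for Notch3, 0.53 for Kdr, 0.39 for Slco1a4 and 0.097 for Cldn5, and the female VTA values were -0.32, -0.38, 0.011 and -0.098 in that order.

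Mural and fibroblast markers varied alongside, as did markers of other cells. In male NAc core the 12 mural genes summed to 547 to 966 CPM with NIC (median 708) and 408 to 728 with SAL (median 598), and the 10 fibroblast genes to 482 to 1388 (median 806) and 334 to 752 (median 612). In female VTA mural sums were 365 to 1265 CPM with NIC (median 837) and 803 to 2291 with SAL (median 1085), and fibroblast sums 179 to 2016 (median 1172) and 842 to 2642 (median 1642). In male VTA, where the vessel genes differed by at most 0.14, fibroblast medians were 2186 and 1867 CPM. Medians with NIC and SAL for the endothelial genes were 708 and 665 CPM in male NAc core and 821 and 888 in female VTA. For perivascular macrophage genes they were 17.9 and 15.1, and 22.4 and 32.0. Dopaminergic neuron genes had 1751 and 1989 in female VTA. The 1 cortical neuron gene went the other way, with 2414 and 2817 in male NAc core and 276 and 225 in female VTA. The part of these cells in the NIC and SAL values was not tested.

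Libraries of the same sex, region and treatment also varied together in the 4 genes. With group means removed, Pearson's r of log2 CPM was positive in all 18 pairs of genes and regions, and 11 passed (two-sided permutation test with 100000 draws within groups, Benjamini-Hochberg adjusted over 18), of which 3 lay close to the threshold at adjusted p of 0.0427 to 0.0468. Both genes of a pair share a library's depth and scaling, and how many of all gene pairs would pass in the same libraries was not counted. In VTA (31 libraries) 5 of 6 pairs passed, led by Cldn5 and Notch3 (r = 0.70, permutation p 3e-05, adjusted p 0.00054; Spearman's rho 0.67, adjusted p 0.00234), and r was 0.66 without the 2 libraries farthest from the Cldn5 median. Cldn5 and Slco1a4 passed in VTA by r (0.61, adjusted p 0.00563) and not by rho (0.36, adjusted p 0.098). The same held in NAc shell for Cldn5 with Kdr (rho 0.38, adjusted p 0.0691) and with Notch3 (rho 0.35, adjusted p 0.098), so fewer pairs passed by rho than by r. The pair that did not pass in VTA was Cldn5 and Kdr (r = 0.32, adjusted p 0.0719).

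Slco1a4 and Kdr varied together in every region: r was 0.57 (VTA), 0.53 (core) and 0.65 (shell) (adjusted p 0.0022, 0.00677 and 0.0022), rho was 0.61, 0.51 and 0.57 (adjusted p 0.00603, 0.0186 and 0.00786), and r was 0.62, 0.51 and 0.56 without the 2 farthest libraries. Kdr and Notch3 passed in VTA (r = 0.61) and NAc core (0.59, adjusted p 0.00306) and not in NAc shell (0.30, adjusted p 0.132). In NAc shell the Cldn5 relations with Kdr (0.44) and Notch3 (0.42) fell to 0.20 and 0.19 without the 2 libraries farthest from the Cldn5 median, on which they rest, and were 0.51 and 0.54 without the library that stood apart. Removing preparation batch as well gave r of 0.70, 0.60 and 0.68 for Slco1a4 and Kdr and 0.72 for Cldn5 and Notch3 in VTA. Without the 3 libraries that stood apart, 11 of 18 pairs passed, and fewer passed with DESeq2 size factors, as given with the other processing choices below. Whether r differs between regions was not tested.

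**Figure D5:**
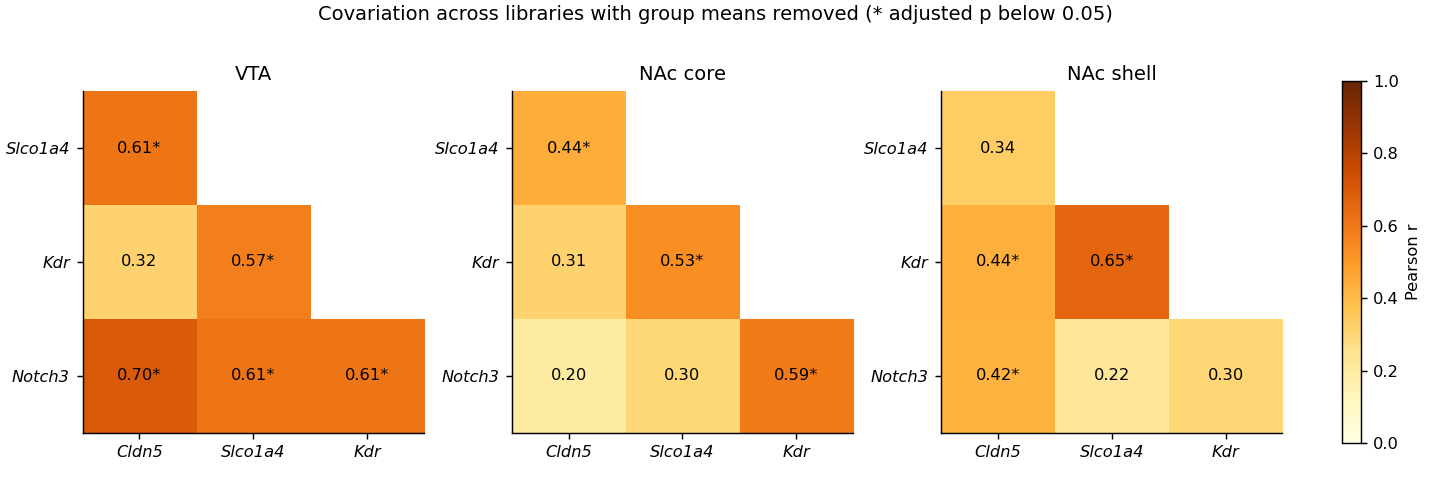
Pearson's r between pairs of the 4 genes across the 31 or 32 libraries of each region, group means removed; an asterisk marks an adjusted permutation p below 0.05. Slco1a4 and Kdr are marked in all 3 regions (0.57, 0.53 and 0.65), and Cldn5 and Notch3 have the highest r in VTA (0.70).

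Over all 94 libraries and 14452 genes with a mean of at least 1 CPM, the genes whose centered log2 CPM was most like each of the 4 differed from gene to gene. For Cldn5 they were Esam (r = 0.80), an endothelial adhesion molecule, Eng (0.72) and Acvrl1 (0.72), receptors of the TGF-beta family, Slc38a3 (0.72), an amino acid transporter, and a gene without a symbol in the tables (0.70). For Slco1a4 they were Clec2g (0.71), a gene without a symbol (0.70), Tek (0.69), Ptn (0.68), a growth factor, and AC108574.1 (0.68). For Kdr they were Slc22a8 (0.77), an organic anion transporter, a gene without a symbol (0.74), Slc13a3 (0.74), a dicarboxylate transporter, Cdh5 (0.74), the endothelial cadherin, and Cavin1 (0.73), a caveolar coat gene. For Notch3 they were Tns1 (0.84), Adgra2 (0.80), Lama5 (0.75), Tln1 (0.75) and Cspg4 (0.74), the last a pericyte proteoglycan, and within VTA alone r with Tns1 was 0.94. None of the 4 genes was among the 5 most like another of them. The nearest was Kdr, at place 57 for Slco1a4, and the others lay between place 145 (Slco1a4 for Cldn5) and place 1021 (Cldn5 for Kdr). Without the 3 libraries that stood apart, 5, 4, 3 and 4 of the 5 genes were shared for Cldn5, Slco1a4, Kdr and Notch3.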

How the data were processed

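RNA-seq of VTA, NAc core and NAc shell from 32 F1 rats was used. The authors trimmed paired-end reads with fastp 0.20.0, quantified them with Salmon 0.12.0 on Rnor version 6 and summed transcripts to genes; the deposited estimated counts are whole numbers, not normalized, for 17637 genes in each of 96 libraries. Strand and multimapping settings were not given in the sources used here. The 94 libraries named in the study's supplementary plot of its samples were used, with no reason given there for the others; female NAc core NIC 1 and library R1 of male VTA SAL 5 entered only an alternative, and a VTA library of male SAL 3 was not analysed here. Groups came from the labels. The 4 genes and all lists were chosen with earlier results of these data known.

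The 16879 genes that exceeded a DESeq2-normalized count of 10 in 3 or more libraries were tested with edgeR 4.0.16 (R 4.3.3), quasi-likelihood, TMM scaling and Benjamini-Hochberg adjustment over all genes. Regions were compared in 1 fit of 12 groups, averaged over sex and treatment; sexes within a region with treatment as a term; NIC and SAL within a sex and region without a covariate. Symbols came from the study's tables (7926 identifiers). Named list genes are the 2 with the smallest p per direction. Gene lengths were not used, so levels were not compared between genes. Rat numbers pair regions, since the labels number the rats: libraries of the same rat had a median r of 0.054 (VTA and NAc core), 0.043 (VTA and NAc shell) and 0.12 (NAc core and shell), other rats -0.011, -0.0067 and -0.017. Alternatives were DESeq2 1.42.0 size factors and its test, no count filter, all mapped libraries, preparation batch as a term, a replicate block, saline rats only, leaving out each rat or library, and, chosen after seeing the data, leaving out 3 libraries that stand apart. The fits were first tested on simulated data.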

Additional observations from a re-analysis of the deposited data

Results flagged for a closer look

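In 48 sets of a gene and group, 3 held a library far from the others by Dixon's ratio, where chance alone gives about 1 in 20. Female NAc shell SAL 13 had 149 CPM of Cldn5 (92.0 to 117 in the other 7 rats) and 38.1 CPM of Notch3 (21.2 to 26.4). Female VTA SAL 12 had 156 CPM of Slco1a4 (87.3 to 115 in the others). Library female NAc core NIC 1, which the comparisons did not use, had more of each gene than the 15 other female NAc core libraries: 158 CPM of Cldn5 (at most 141), 108 of Slco1a4 (at most 90.0), 30.3 of Kdr (at most 21.7) and 46.4 of Notch3 (at most 27.6). Its Slc6a3 was 382 CPM, against at most 0.921 in the 15, and its Drd1 was 1.69, against at least 67.4. The VTA library of the same rat had 144, 104, 32.2 and 45.9 CPM of the 4 genes and 402 CPM of Slc6a3. No explanation for these values was tested.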

How the results depend on the processing

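All 8 differences between VTA and either part of the NAc kept their direction and passed under every alternative run. Between NAc core and NAc shell the number of the 4 genes that passed fell from 3 to 1 in saline rats alone. That fit had fewer rats, and they belong to the contrast by which the genes were picked. The number was 4 with the replicate block, which changed no other call. The number that passed between males and females fell from 3 to 1 in NAc core with all mapped libraries, which adds female NAc core NIC 1, whose region markers go against its label, and from 2 to 0 in NAc shell with preparation batch as a term, where Notch3 turned to -0.28; in VTA it ran from 0 to 2 when each library was left out. The batch term could not be estimated for NAc core. For sex differences of a region step, none of which passed, signs turned for Slco1a4 (VTA to shell) without the 3 libraries that stand apart (-0.0085), for Cldn5 (core to shell) with DESeq2 size factors (0.00039) and the DESeq2 test (0.00051), and for Notch3 (core to shell) with all mapped libraries (-0.015). Leaving out each rat gave -0.016 to 0.058 for Slco1a4 and -0.0053 to 0.10 for Kdr (VTA to shell), and -0.027 to 0.026 for Cldn5 and -0.048 to 0.029 for Kdr (core to shell); leaving out each library gave -0.0044 to 0.088 for Notch3 between the sexes in NAc shell. Of the 18 correlations, 11 passed with a prior count of 0.5, 12 with batch removed and 8 with DESeq2 size factors. The causes of these shifts were not tested. With 7 or 8 rats per group and 1 library per rat and region, p-values measure the spread among the libraries of these rats only. The main region fit held no rat term, so it treated the libraries of 1 rat as independent, and its p-values mix spread within and between rats.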

Other observations

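Male rat SAL 5 has 2 VTA libraries, R1 and R2, and the labels do not say how they differ; they had 161 and 155 CPM of Cldn5, 124 and 121 of Slco1a4, 34.4 and 33.0 of Kdr and 45.9 and 45.3 of Notch3.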
